A study of Rattus norvegicus with 9 samples.

Results

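The circadian clock genes described here are 10 genes of the core clock and its output: the repressors Cry1, Cry2, Per1, Per2 and Per3, the activator Clock, the nuclear receptors Nr1d1 and Nr1d2, the output factor Dbp and the kinase gene Csnk1d. All array probe sets that the platform annotation assigns to 1 of these symbols and to no other gene were taken, which gave 22 of the 31042 rat probe sets (0.0709%) and covered 10 of 14217 named genes. The RNA came from the thalamus of male Wistar rats and was measured on 9 single-colour arrays. The animals, 3 weeks of age when the experiment began, lived under 12 h of light and 12 h of dark, and ate powdered feed for 2 days. They then received either solid chow, which has to be chewed (4 arrays), or continued on powder (5 arrays) for 8 days. The labels give an age of 5 weeks for every sample and speak of 10 rats. They do not say which rat each array came from, and the p-values therefore cover the spread among these arrays, which may be technical in part. The time of day at which the tissue was taken is not given in the sources used here, and for clock genes a difference in sampling time between the groups and an effect of diet cannot be told apart in these data.

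The clock is a transcriptional feedback loop that runs in nearly every cell. CLOCK and its partner BMAL1 bind E-box sequences and switch on the Per and Cry genes, whose proteins then inhibit CLOCK and BMAL1. In a second loop, REV-ERB receptors, encoded by Nr1d1 and Nr1d2, and ROR receptors repress and activate Bmal1, and DBP drives further rhythmic genes through D-boxes. Casein kinase 1 delta, the product of Csnk1d, phosphorylates PER proteins and so sets the pace of the loop. The master clock lies in the suprachiasmatic nucleus of the hypothalamus, which neighbours the thalamus, and the clocks of other tissues follow it and feeding.

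The start regions of the clock genes were searched for the sequence elements of these loops. RefSeq windows (build GRCr8) of 300 bases, from 250 before to 50 after the annotated start, were found for 8 of the 10 genes, 10 windows in all. The search covered both strands and looked for the E-box CACGTG, its variant the E′-box CACGTT, the D-box TTATGTAA, the ROR half-site AGGTCA and the cAMP response element TGACGTCA. The windows of Cry2 (chr3:98860388-98860687, minus strand) and Per2 (chr9:99496944-99497243, minus strand) are printed 5′ to 3′, with matches in capitals. They were chosen because Cry2 had the largest diet difference of the 10 genes and Per2 has the same E′-box and, apart from it, a D-box.
Cry2: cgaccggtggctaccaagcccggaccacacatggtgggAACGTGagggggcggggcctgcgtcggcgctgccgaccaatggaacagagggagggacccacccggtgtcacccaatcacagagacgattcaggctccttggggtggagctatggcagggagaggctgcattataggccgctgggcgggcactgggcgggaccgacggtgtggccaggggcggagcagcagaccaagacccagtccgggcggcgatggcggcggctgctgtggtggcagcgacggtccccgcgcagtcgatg
Per2: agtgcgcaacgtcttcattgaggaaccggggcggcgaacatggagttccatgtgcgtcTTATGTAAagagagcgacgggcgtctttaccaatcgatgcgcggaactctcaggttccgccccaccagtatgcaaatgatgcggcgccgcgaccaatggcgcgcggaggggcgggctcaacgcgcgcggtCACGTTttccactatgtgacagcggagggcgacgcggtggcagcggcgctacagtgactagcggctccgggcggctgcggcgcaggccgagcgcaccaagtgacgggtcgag
In Cry2 the capitals mark an E′-box that begins 212 bases before the start and reads AACGTG because it lies on the opposite strand. In Per2 they mark a D-box 192 bases and an E′-box 62 bases before the start. The E′-box was present in 4.83% and the D-box in 0.893% of all 33469 windows of the same length. Of the 10 windows, 5 held none of these elements. Among the other clock genes, Nr1d1 had an E-box in 1 of its 2 windows and an E′-box in the other, and Nr1d2 had a ROR half-site 187 bases before the start (sequences present in 6.42%, 4.83% and 16.2% of all windows). These matches describe the letters of the window and do not show that a factor binds there.

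Most values in the deposited table barely vary. For 26193 rat probe sets (84.4%) the 9 log2 values spanned less than 0.01, with a median span of 0.000475, and such probe sets are called compressed here. Of the clock gene probe sets, 17 were compressed and 5 were not, 1 each of Cry1, Cry2, Per1, Per2 and Nr1d2. Correlations between arrays over all probe sets ran from 0.991 to 0.999. Array chow 1 stood apart: its root mean square deviation from its group mean over the uncompressed probe sets was 0.1996, against 0.0914 to 0.139 on the other arrays. The markers of thalamic relay neurons, such as Tcf7l2 and Slc17a6, had a mean over 12 uncompressed probe sets of 9.30 on chow 1 and of 9.68 to 9.90 on the other arrays, where the median over all probe sets lay between 7.391 and 7.402. On chow 1, the mean of 6 uncompressed astrocyte probe sets was 10.3 (9.81 to 10.0 elsewhere) and that of 7 reticular nucleus and interneuron probe sets was 9.44 (8.64 to 9.04 elsewhere). Not every probe set followed these means. Pvalb was lowest on chow 1 (9.07, against 9.34 to 9.68 elsewhere), and Gfap and Aqp4 1372190_at lay within the range of the other arrays. The rest of these uncompressed probe sets were highest on chow 1. The differences of the 5 uncompressed clock gene probe sets are therefore given with and without chow 1. In such tissue RNA, fewer cells of a type and less RNA per cell cannot be told apart.

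Cry2 and Cry1, the cryptochromes that repress CLOCK and BMAL1, were lower under chow than under powder. Cry2 fell 1.31-fold and Cry1 1.13-fold, and for both genes all chow arrays lay below all powder arrays. The other 3 clock genes with uncompressed values, Per1, Per2 and Nr1d2, had negative differences that did not pass the test. Together, 2 of the 5 uncompressed probe sets were called lower and 0 higher (limma, Benjamini-Hochberg adjusted p under 0.05 over all rat probe sets; 3 lower and 0 higher at an unadjusted p under 0.05). Among all 4849 uncompressed probe sets, 38.8% were called lower, 16.1% higher and 54.9% in either direction. The clock genes' share of lower calls, 40.0%, was thus close to that background.

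Cry2, measured by probe set 1372548_at, had log2 values of 8.73, 9.02, 8.96 and 8.92 on chow arrays 1 to 4. On powder arrays 1 to 5 the Cry2 values were 9.31, 9.29, 9.30, 9.20 and 9.37. The highest chow value thus lay below the lowest powder value, and chow 1 was the lowest array of all. The chow mean was 8.91 ± 0.125 and the powder mean 9.29 ± 0.060 (SD, n = 4 and 5), a log2 difference of -0.39 ± 0.061 (SE, adjusted p = 0.00558). Its absolute difference was at percentile 94.1 of all uncompressed probe sets. Without chow 1 the Cry2 difference was -0.33 ± 0.040 (adjusted p = 0.00711).

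Cry1, the paralog of Cry2, was measured by the single probe set 1392640_at. Its chow values were 8.07, 7.93, 8.02 and 7.89, and its powder values were 8.14, 8.13, 8.12, 8.19 and 8.18. Here chow 1 was the highest chow array, and the groups again did not overlap. The means were 7.98 ± 0.080 and 8.15 ± 0.031 (SD, n = 4 and 5), a log2 difference of -0.17 ± 0.037 (adjusted p = 0.0142), at percentile 44.7 of the uncompressed probe sets. Without chow 1 the Cry1 difference was -0.20 ± 0.032 (adjusted p = 0.0112).

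**Figure D1:**
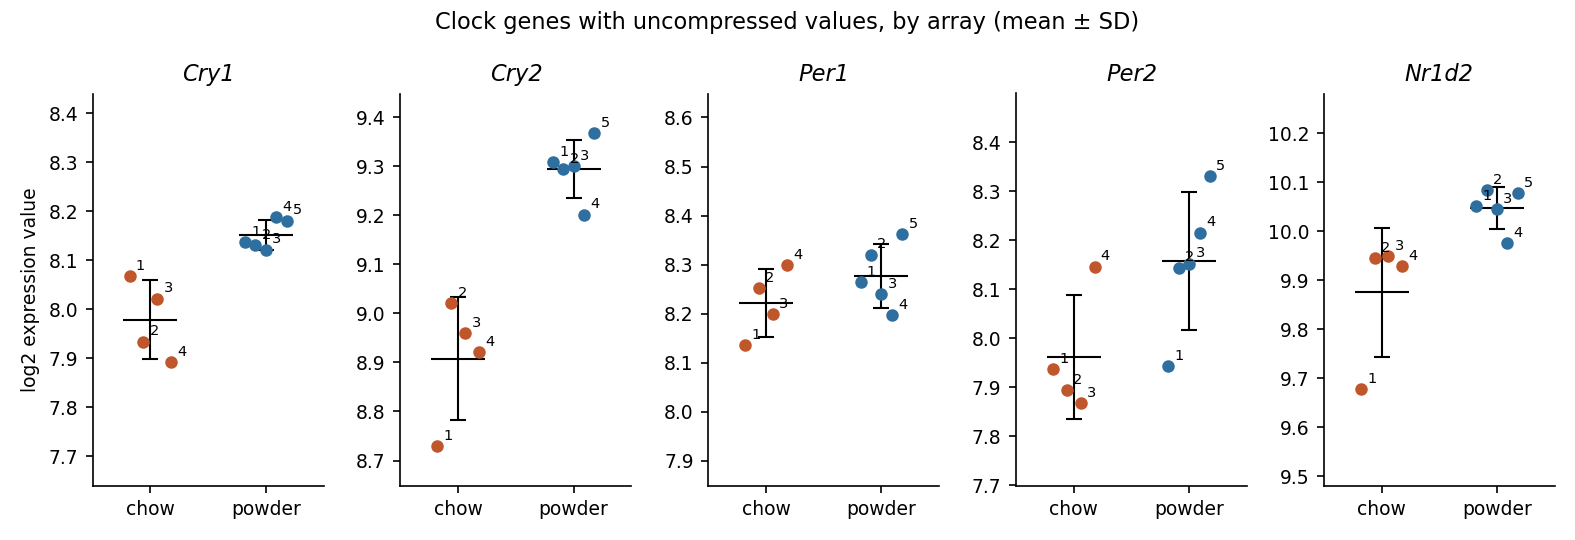
Log2 expression values (vertical axes, all 0.8 units tall) of the 5 uncompressed clock gene probe sets on each array, numbered by replicate, for chow (orange) and powder (blue); black bars give the group mean ± SD. The chow points lie below all powder points for Cry1, Cry2 and Nr1d2 and overlap them for Per1 and Per2, and chow 1 is far below the other chow arrays for Nr1d2.

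Whether the paralogs changed unequally was tested on probe sets 1372548_at of Cry2 and 1392640_at of Cry1, and the result holds for these probe sets only. The compressed Cry2 probe set was not used. The tested value was the Cry2 value minus the Cry1 value of each array. This log2 ratio was 0.66, 1.09, 0.94 and 1.03 on the chow arrays and 1.17, 1.16, 1.18, 1.01 and 1.19 on the powder arrays. The groups overlapped through powder 4, which lay below chow 2 and chow 4. The chow mean was 0.93 ± 0.188 and the powder mean 1.14 ± 0.073 (SD, n = 4 and 5), a difference of -0.21 (two-sided exact permutation p = 0.0317, the only such pair tested; the smallest p this design allows is 0.00794). The size of this difference rested in part on chow 1: without it the difference was -0.12 (exact permutation p = 0.0893). The difference was -0.22 without chow 3 (exact permutation p = 0.0536) and -0.21, -0.21, -0.20 and -0.20 without powder 1, 2, 3 or 5 (exact permutation p = 0.0857 each). There the size stayed while p passed above 0.05. Without chow 2, chow 4 or powder 4 the difference was -0.27, -0.25 and -0.25. In these designs with as few arrays, p stayed under 0.05 (exact permutation p = 0.0357, 0.0357 and 0.0286), so the result depended on which array was left out.

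The period genes encode the partners of the cryptochromes in the repressor complex. Per2, on probe set 1368303_at, was at 7.94, 7.89, 7.87 and 8.15 under chow and at 7.94, 8.14, 8.15, 8.22 and 8.33 under powder. The Per2 groups overlapped, because chow 4 lay among the powder arrays and powder 1 among the chow arrays. Its difference of -0.20 ± 0.088 was larger than that of Cry1 but came with a larger spread (SD 0.127 and 0.141) and was not called (adjusted p = 0.116). Without chow 1 the Per2 difference was -0.19 (adjusted p = 0.203).

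Per1 had chow values of 8.14, 8.25, 8.20 and 8.30 and powder values of 8.26, 8.32, 8.24, 8.20 and 8.36 on probe set 1374855_at. The groups overlapped over most of their range. The Per1 difference was -0.055 ± 0.044 (adjusted p = 0.345, not called). It was -0.026 without chow 1 (adjusted p = 0.658) and -0.034 without powder 5 (adjusted p = 0.56). Both Per3 probe sets were compressed and neither was called (differences of -0.00016 and 4.6e-05, adjusted p = 0.149 and 0.316).

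Nr1d2 encodes REV-ERB beta, a haem-binding repressor of Bmal1. On probe set 1390430_at it was at 9.68, 9.95, 9.95 and 9.93 under chow and at 10.05, 10.08, 10.05, 9.98 and 10.08 under powder. All chow arrays lay below all powder arrays, as they also did for Cry1 and Cry2; among all uncompressed probe sets, 36% had every chow array below every powder array. The difference was -0.17 ± 0.060 (adjusted p = 0.0608) and was not called over all arrays, with an SD of 0.132 under chow, where chow 1 lay far below the others, and of 0.043 under powder. Without chow 1 the Nr1d2 difference shrank to -0.11 ± 0.025 and was called (adjusted p = 0.0291). Its other 2 probe sets were compressed and not called, and the single probe set of Nr1d1, which encodes REV-ERB alpha, was compressed at a difference of -0.00031 ± 0.000145 (adjusted p = 0.128).

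The kinase, the activator and the output gene had compressed probe sets only. Of 5 Csnk1d probe sets, 3 passed the test as higher and 1 as lower, with differences from -0.000376 to 0.000267. Of 4 Clock probe sets, 1 was called higher and 2 lower, from -0.00025 to 0.000158. Dbp, with 1 probe set, was at 9.28 in both groups, a difference of -1.54e-05 ± 8.69e-05 (adjusted p = 0.901). A second Cry2 probe set, 1369446_at, was compressed and was called in the opposite direction to the first (0.000304 ± 5.51e-05, adjusted p = 0.00828), and a compressed Per2 probe set was also called higher (0.000156, adjusted p = 0.0149). Differences of this size pass a test but correspond to a fold of 1.00.

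Over all 22 clock gene probe sets, 6 were called higher and 5 lower, 50.0% in all, where 34.6% of all rat probe sets were called (17.9% higher and 16.7% lower). Among the 17 compressed ones, 6 were called higher and 3 lower, 52.9%, against 30.9% of all compressed probe sets (18.2% higher and 12.7% lower). Cry2, Clock and Csnk1d had probe sets called in both directions, 3 of the 6 clock genes with several probe sets. Among all genes with several probe sets this held for 591 of 4525 (13.1%). That share was not matched for the number of probe sets per gene, which was 4 for Clock and 5 for Csnk1d. A gene with more probe sets has more chances of opposite calls, so the shares cannot be compared directly. The split depended on scaling: quantile normalization gave 14 higher and 2 lower, and subtraction of array medians gave 17 higher and 3 lower. All rat probe sets moved the same way, with 56.3% called after quantile normalization (15610 higher and 1854 lower) and 94.5% after median subtraction (27206 higher and 2141 lower), so these counts say nothing particular to the clock genes. Under either, 0 of the 5 uncompressed clock gene probe sets were called higher. Such calls were also the fewer among all 4849 uncompressed probe sets. There, quantile normalization left 1042 called higher against 1836 lower, and median subtraction left 1045 against 2141. With only 5 probe sets, a count of 0 cannot be told apart from this background. Counted as genes, each by its probe set of highest mean, 4 of 10 were lower and 0 higher (of 14217 genes, 32.9% were called, 14.2% higher and 18.8% lower), of which Clock and Csnk1d rested on compressed values. By the median over each gene's probe sets, 2 of the 10 were lower (Cry1 and Cry2) and 1 higher, where 31.1% of all genes were called (16.9% higher and 14.2% lower). Csnk1d turned from -0.000376 (adjusted p = 0.00546) to 0.00023 (adjusted p = 0.00912) and Clock was no longer called (adjusted p = 0.0698).

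**Figure D2:**
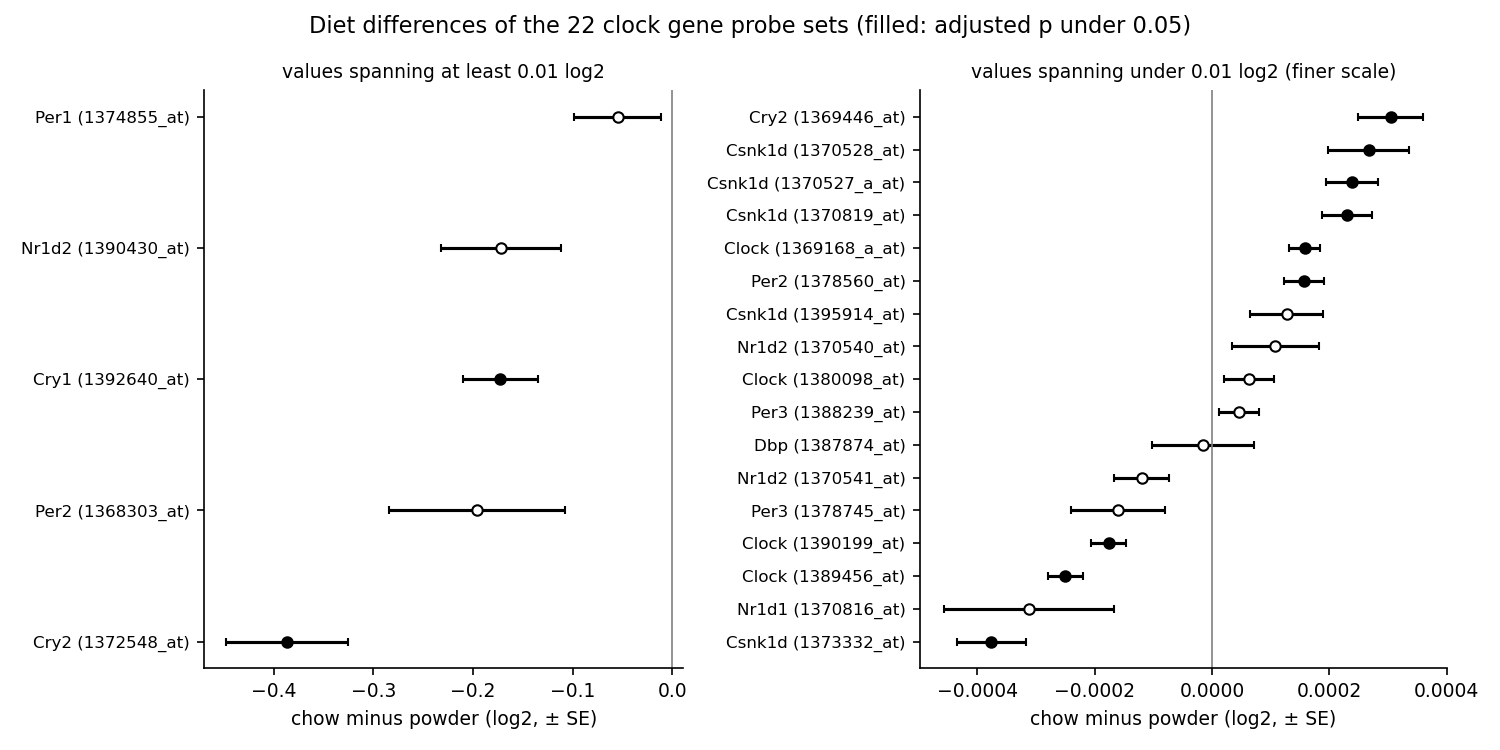
Chow minus powder log2 differences ± SE (horizontal axes) of the 22 clock gene probe sets, with the 5 uncompressed ones on the left and the 17 compressed ones on the right on a much finer scale; filled circles mark an adjusted p under 0.05. All 5 on the left are negative with Cry2 at -0.39, and those on the right lie between -0.000376 and 0.000304 on both sides of 0.

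RNA quality and neighbouring cell types were measured beside these genes. The 5′ minus 3′ value of the beta-actin control probe sets, a measure of how complete the transcripts are, was -1.58 to -1.44 on the chow arrays and -1.70 to -1.55 on the powder arrays (two-sided exact permutation p = 0.0238). With this value as a covariate, chosen after the data were seen, the Cry2 difference was -0.32 (adjusted p = 0.0971) and that of Cry1 was -0.22 (adjusted p = 0.0787), and neither was called. In that fit 4.60% of all probe sets were called. Of the 14 probe sets for suprachiasmatic and hypothalamic markers, 7 were uncompressed, and 1, a compressed one, was called, where 34.6% of all rat probe sets were. The mean of these 7 was 8.82 to 9.56 under chow and 8.35 to 9.62 under powder, so it overlapped between the groups. It joined genes that went both ways. Log2 differences were positive for Pmch (1.01), Hcrt (0.55), Avp (0.21) and Oxt (0.11). They were negative for Rgs16 (-0.35), Vip (-0.31) and Trh (-0.23), and none of the 7 was called. Oxt, Avp and Pmch spanned 3.33, 2.98 and 2.68 log2 units over the 9 arrays, so the hypothalamic signal varied widely between arrays. The mean of 3 uncompressed endothelial probe sets was 8.277 to 8.494 under chow and 8.492 to 8.623 under powder, which just overlapped. Of these 3, 2 were called lower. Among all uncompressed probe sets, 38.8% were called lower and 16.1% higher. The mean of the 6 astrocyte probe sets was 9.98 to 10.3 under chow and 9.81 to 9.94 under powder, with 2 called higher. The called ones were Aqp4 1368981_at (0.53) and Slc1a3 1388064_a_at (0.53), and Gja1 was at 0.44. Other probe sets of the same genes did not follow: Aqp4 1372190_at was at -0.14 and Slc1a3 1368565_at at 0.02. Gfap was at -0.20. The part of these cell types in the Cry1 and Cry2 results was not tested.

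Other genes of the clock pathway came from a list of 38 genes that leaves out the 10 clock genes above. Of these, 33 were measured by 61 probe sets, 14 of them uncompressed. The test called 8 probe sets higher and 7 lower (24.6%, against 34.6% of all rat probe sets), and among the uncompressed ones 4 higher and 1 lower (35.7%, against 54.9%). Here too the split over all 61 probe sets moved with scaling, as the counts over all rat probe sets did. Quantile normalization gave 43 higher and 1 lower, and median subtraction gave 52 higher and 2 lower. The split of the 14 uncompressed ones moved little, to 5 and 1 and to 5 and 2. It ran opposite to that of all 4849 uncompressed probe sets. Of those, 1836 were called lower and 1042 higher under the first scaling, and 2141 lower and 1045 higher under the second. The median difference of the uncompressed ones was 0.098, and that of all uncompressed probe sets was -0.11. Among the calls on uncompressed values were kinases that phosphorylate clock proteins and a subunit of a ubiquitin ligase.

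Prkaa1, the alpha1 catalytic subunit of AMP-activated kinase, which marks cryptochrome for degradation, was lower under chow (log2 difference -0.21 ± 0.027, adjusted p = 0.00332). Its chow values of 8.75 to 8.83 all lay below its powder values of 8.94 to 9.05. Skp1, the adaptor of the SCF ubiquitin ligases that degrade PER and CRY proteins, rose by 0.23 ± 0.055 (adjusted p = 0.0187), with chow values of 11.75 to 11.94 above powder values of 11.55 to 11.74.

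Csnk1a1, a relative of Csnk1d, rose by 0.30 ± 0.062 on 1 probe set (adjusted p = 0.0122), with chow values of 9.22 to 9.39 above powder values of 8.89 to 9.17. A second uncompressed Csnk1a1 probe set was at 0.13 ± 0.047 (adjusted p = 0.064) and was not called over all arrays. It was called without powder 3 (0.17, adjusted p = 0.00701), and also with quantile normalization, median subtraction, compressed probe sets left out or array weights (0.13 to 0.15, adjusted p = 0.0174 to 0.0495). Csnk2a1, a catalytic subunit of casein kinase 2, was called on both of its uncompressed probe sets, at 0.34 ± 0.096 (adjusted p = 0.0327, groups overlapping) and 0.12 ± 0.031 (adjusted p = 0.0237, no overlap). Neither Csnk2a1 call held without chow 1 (adjusted p = 0.0749 and 0.0542) or without chow 3 (0.0523 and 0.0536), and the first was also lost without chow 2 or without powder 1, 2, 4 or 5 (0.0507 to 0.0792). With the beta-actin covariate, Prkaa1 was called (-0.25, adjusted p = 0.0373) and the calls on Skp1, Csnk1a1 and Csnk2a1 were lost (adjusted p = 0.209 to 0.334). Skp1 went to 0.12, Csnk1a1 to 0.18 and the second Csnk2a1 probe set to 0.070, whereas the first Csnk2a1 probe set stayed at 0.32.

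The remaining uncompressed genes of the list were not called. Npas2, a paralog of Clock, was at -0.22 ± 0.081 (adjusted p = 0.0704) and was called without powder 5 (-0.27, adjusted p = 0.035), with medians subtracted (-0.21, adjusted p = 0.0311) and with compressed probe sets left out (adjusted p = 0.0377). Rora, which activates Bmal1 and is also a marker of relay neurons, was at 0.22 ± 0.122 over all arrays (adjusted p = 0.187) and was called without chow 1, at 0.34 (adjusted p = 0.0232), while without chow 2 it was at 0.14. The 3 Hlf probe sets, for a D-box factor related to Dbp, were at -0.17, -0.19 and 0.074, and without chow 1 they were at -0.052, -0.094 and 0.18. The E-box repressor Bhlhe40 was at 0.17 ± 0.120 (adjusted p = 0.291) and at 0.054 without chow 3. Id2, an inhibitor of helix-loop-helix factors, was at -0.098 over all arrays and was called without chow 1 (-0.15, adjusted p = 0.0265), while without chow 2 it was at -0.064. Usp2, a deubiquitinase, was at -0.10 (adjusted p = 0.223) and at -0.045 without chow 1. Bmal1 had 1 probe set, which was compressed and not called (-0.000213, adjusted p = 0.313).

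**Figure D3:**
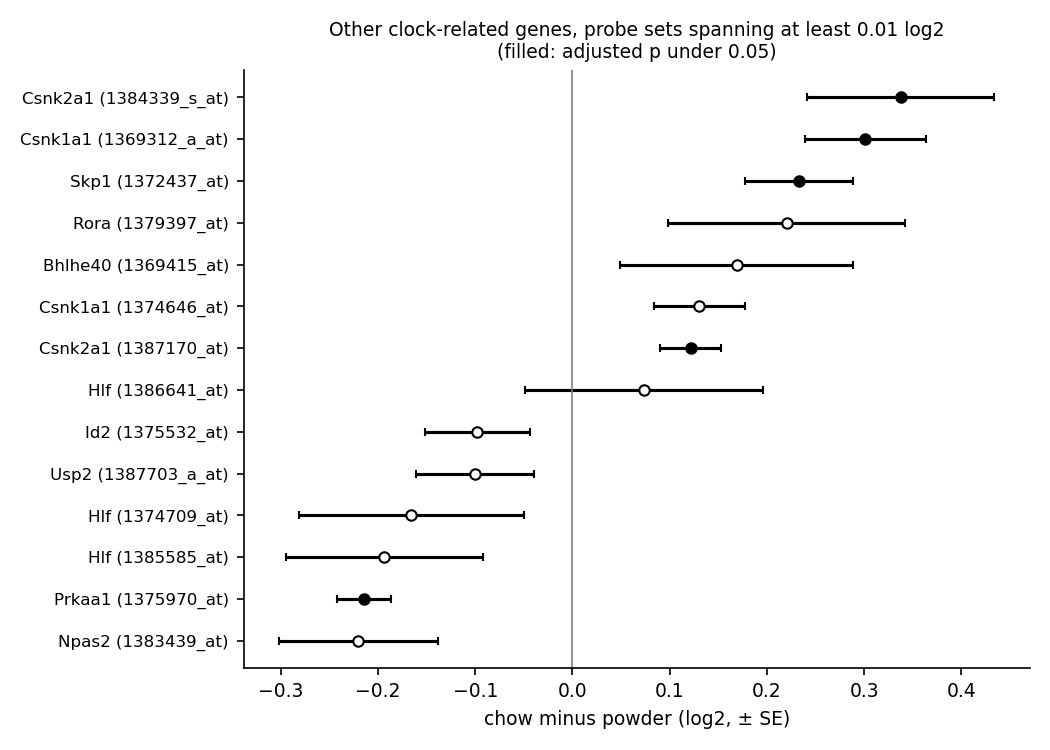
Chow minus powder log2 differences ± SE (horizontal axis) of the 14 uncompressed probe sets from the list of other clock-related genes; filled circles mark an adjusted p under 0.05. The 5 filled circles are Csnk2a1 with 2, Csnk1a1 and Skp1 on the positive side and Prkaa1 at -0.21 on the negative side.

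The genes whose values across the arrays lay nearest to those of Cry2 were then sought among 3428 uncompressed probe sets of other genes. Likeness was the root mean square difference over the 9 arrays after each gene's own mean had been subtracted. The nearest were Adgrf5, an adhesion G protein-coupled receptor (0.0277), Nmnat1, a nuclear enzyme of NAD synthesis (0.0437), Grin1, the obligate NMDA receptor subunit (0.0466), the kinase gene Mapk8 (0.0496) and the methyltransferase-like gene Pcmtd1 (0.0542). All 5 were lowest on chow 1, with differences from -0.41 to -0.32, which follows from their choice by likeness to Cry2. Of the clock genes, Nr1d2 lay nearest to Cry2 at 0.111, and 12.9% of the 3428 probe sets were nearer still. Cry1, at 0.160, had 37.4% of them nearer, Per2, at 0.174, 42.9%, and Per1, at 0.175, 43.1%.

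**Figure D4:**
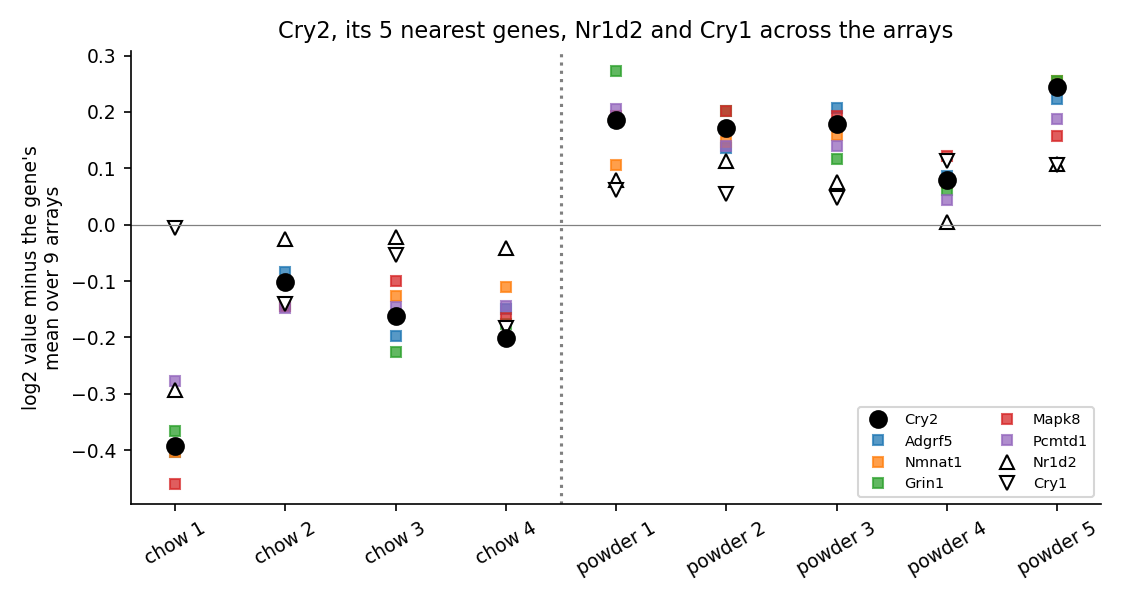
Log2 value minus the gene's own mean over the 9 arrays (vertical axis) on each array (horizontal axis, chow left and powder right of the dotted line) for Cry2 (black circles), its 5 nearest genes (coloured squares), Nr1d2 and Cry1 (open triangles). Cry2 and its nearest genes, chosen for their likeness to it, are lowest on chow 1 and positive on all powder arrays, while Cry1 is highest among the chow arrays on chow 1.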

How the data were processed

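The deposited table, made by the authors, holds 1 log2 value per probe set and array. The log2 scale was read from the range of the values, 5.37 to 14.0, and no source used here gives the summarisation, background correction or normalization. No scanner file or detection call was used, so no background level could be set, and the number of arrays limits the precision. After 57 control probe sets were left out, the diets were compared on the unaltered values by limma 3.58.1 under R 4.3.3 (lmFit and eBayes, no covariates). P-values were adjusted by Benjamini-Hochberg over 31042 probe sets and called under 0.05. Array medians were 7.39 under chow and 7.40 under powder, a difference of -0.00657 (two-sided exact permutation p = 0.00794, the smallest this design allows). This shift was larger than any difference of a compressed clock gene probe set (at most 0.000376 in size). Only the limma step was tested on simulated data. The simulated noise was independent between probe sets, which that of the real arrays need not be. The simulation therefore does not show how well the p-values hold for these arrays. Groups came from the sample titles.

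The 10 genes, the list of 38 others and the limit of 0.01 on the span were chosen with earlier results of these data known. Every probe set of the 10 genes is described; of the list, every gene with an uncompressed probe set is named, as are the 5 genes nearest to the called clock gene of largest difference, Cry2. Genes were named from the platform annotation (20826 probe sets with 1 symbol, 436 with several and 9780 with none listed), and probe sets with several symbols were not named. The rule for sequences allowed those of the called genes of largest difference; the Per2 window was added after its values were seen. Bmal1, named only for context, is in the list; 5 of the 38 genes matched no probe set. Alternatives were a trended robust variance, quantile normalization, median subtraction, filters on dim and on compressed probe sets, array weights, a replicate block, a looser threshold, a minimum difference of 0.1, leaving out each array, and a gene's median probe set value. A beta-actin covariate was added later.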

Additional observations from a re-analysis of the deposited data

Results flagged for a closer look

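In 3 of 40 sets of 4 or 5 values checked for an array far from the others, the gap to the nearest array was larger than chance usually gives (about 1 set in 20). Nr1d2 was at 9.68 on chow 1, where the next chow array was at 9.93. Id2 was at 8.83 on powder 2, where the next powder array was at 8.93. The Cry2 minus Cry1 log2 ratio was 1.01 on powder 4, where the next powder array was at 1.16.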

How the results depend on the processing

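Cry1 and Cry2 stayed lower under chow in all 18 alternatives, with log2 differences of -0.22 to -0.14 and -0.42 to -0.32. They were called in 16, and the exceptions were the replicate block and the beta-actin covariate. Some of these could not have changed the outcome. The trended robust variance, the filters and the looser threshold leave the difference itself unaltered, so its direction was fixed there. The looser threshold could not lose a call. The titles share replicate numbers, but same-numbered arrays did not deviate together (correlations of -0.31, 0.19, -0.34 and -0.16 over uncompressed probe sets), and powder 5 has no chow partner. With that replicate block, limma called 0 clock gene and 0 list probe sets (10 and 17 at an unadjusted p under 0.05; 0 of the uncompressed in either set, 2 and 5 unadjusted), 19 of all probe sets, Cry2 at adjusted p = 0.0727 and Cry1 at 0.116; over the 4 pairs the Cry2 minus Cry1 ratio differed by -0.20 (exact sign-flip p = 0.25; the smallest possible is 0.125). With the covariate, 1 clock gene probe set and 2 of the list were called (0 and 1 uncompressed; 2 and 1 at an unadjusted p under 0.05 in limma).

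The 11 calls on clock gene probe sets became 20 with medians subtracted (94.5% of all probe sets called). They became 3 without compressed probe sets (59.5% of the 4849 left were called) and 2 with a minimum difference of 0.1. The 15 calls on the list became 54, 7 and 5 under the same 3 settings. They became 44 after quantile normalization (56.3% of all) and 26 at an adjusted p under 0.1. Shares over all probe sets were not counted for the minimum difference or the looser threshold. Leaving out 1 array at a time gave 10 to 12 and 9 to 12 calls (9 without chow 1 or powder 1). Of all probe sets, 24.4% to 30.9% were then called. On uncompressed probe sets there were 2 to 3 and 3 to 6 calls (3 on the list without chow 3). Of all 4849 uncompressed probe sets, 1511 to 1869 were then called lower and 568 to 758 higher. The Cry2 minus Cry1 difference was -0.27 to -0.12 with 1 array left out. Directions turned for Hlf 1386641_at without chow 3 (-0.018; range with 1 array left out -0.018 to 0.18), and with the covariate for Per1 (0.031) and Bhlhe40 (-0.17), none of them called, and for Csnk1d, called both ways, by the median over its probe sets (0.00023). Nr1d2 was called with medians subtracted, without compressed probe sets and with array weights (adjusted p = 0.0265, 0.0331 and 0.0475). Causes were not tested.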

Other observations

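Calls on compressed probe sets varied with mean signal. Among all compressed probe sets, the 25% with the highest mean signal (from 8.04 up) had 7.53% called higher and 23.5% called lower under chow, whereas in the 25% between 6.74 and 7.21 the shares were 28.1% and 6.77%. Divided in the same way, the uncompressed probe sets had 32.6% to 43.8% called lower and 14.1% to 17.4% called higher. The Clock probe sets with signals of 8.44 and 8.50 were called lower and that at 6.63 higher, and the Csnk1d probe set at 9.75 was called lower. Of the 3 Csnk1d probe sets called higher, that at 7.42 lay below this highest 25%, and those at 8.15 and 8.17 lay within it, where lower calls were more frequent.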
